A study of Mus musculus with 8 samples.

Results

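The interleukins are secreted proteins through which leukocytes, endothelium and stromal cells signal to each other. Many of them act on paired receptor chains that pass the signal on through JAK kinases and STAT factors. Most signaling receptors of the IL-1 family act through Toll/IL-1 receptor domains, MyD88 and NF-κB. In the IL-1 family most ligands are made as precursors, soluble antagonists and decoy receptors hold the signal back, and an accessory chain shared by several receptors completes the complex. In the adrenal gland IL-1 and IL-6 are known as cytokines that act on both catecholamine and glucocorticoid output. The genes described here are those whose symbol in the array's probe annotation is Il followed by a digit, without Il18. This rule gave 78 of the 22485 annotated genes, on 130 of 33026 annotated spots. It also takes in Il4i1, an amino acid oxidase induced by IL-4, and Il1bos, a non-coding RNA on the opposite strand of Il1b, while Il2rg, Il1rl1 and Il11ra1 have no spot under those symbols.

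RNA of the mouse adrenal medulla was hybridized to 8 two-color oligonucleotide arrays, 4 of SDHD-ESR and 4 of heterozygous (+/-) animals, all males of strain 129/SvJ at 10 weeks of age. SDHD-ESR mice have 1 floxed and 1 null allele of SdhD plus Cre-ER, a Cre recombinase that tamoxifen switches on, and the sources used here do not name its promoter. The +/- littermates carry the same alleles without Cre, so that the null allele is shared by both groups. The common reference on every array was a Cy3-labeled pool of 8 wild-type (+/+) mice, which carry a floxed and a wild-type allele and no Cre. All animals received 4 daily injections of tamoxifen (100 µg/g) from 9 weeks of age and tissues were taken 1 week after the first injection. Each array held Cy5-labeled RNA of 2 mice, and each of 2 slides held 2 arrays of either group, with replicates 1 and 2 sharing the first slide, the others the second slide. A value is a log2 ratio to the +/+ pool, so a positive value means more RNA than in the pool. Sdhd itself was at -5.00, -6.19, -5.26 and -4.86 in SDHD-ESR and at -1.10, -2.25, -0.74 and -0.29 in +/-. The placing of spots and the sign of the values were set so that this gene lies far below the pool in SDHD-ESR, so it is no independent check of the labels.

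Part of the grid of SDHD-ESR replicate 1 is displaced by 1 line. Its aligned lines correlated with the same line of the other arrays at r = 0.42, and its displaced lines at 0.02 with the same line and 0.44 with the next line, as a description across spots. Of the 130 interleukin spots, 68 are in lines that are aligned on this array, 42 in displaced lines and 20 in lines where both occur. Values are given as deposited. Some interleukin genes take their value on SDHD-ESR replicate 1 from displaced or mixed lines only, and it may belong to another spot. They are named as such where that value or a difference that includes it is printed. In whole tissue, fewer cells that make an RNA and less RNA per cell cannot be told apart.

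Most interleukin spots gave weak readings. A reading is 1 spot on 1 array, and it was called low where the ratio equals that of 2 whole numbers of which the smaller is 200 or less, the mark of a dim spot in these values. Of the 1040 interleukin readings, 175 had no ratio and 564 had a low ratio, together 71.1%, against 44.4% of the readings of all annotated spots. By family, the share was 74.2% in the IL-1 family and 76.0% in the family of the common gamma chain, and 57.1% in the IL-17 family. It was 20.2% for a list of pan-leukocyte markers, 20.7% for macrophage markers, 4.17% for chromaffin cell markers and 2.68% for markers of the adrenal cortex. For 20 of the 78 genes no reading on any array was above the low class, and for 6 genes every reading was (Il3ra, Il6st, Il10ra, Il10rb, Il18bp and Il34). The ligand genes Il4, Il10 and Il12b, each present in 10 copies on the array, had 96.3%, 93.8% and 93.8% of their readings missing or low. Il12a had no ratio on any of the 8 arrays.

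No interleukin or receptor spot passed an adjusted p of 0.05 in limma in any of the 3 comparisons that the design allows. With at least 3 values in each group, 98 spots of 62 genes were tested among 28073 spots in all. Between SDHD-ESR and +/- the lowest adjusted p of an interleukin spot was 0.953, and 0.0% of all spots passed. Sdhd, the deleted gene, did not pass this comparison either (difference -4.23, unadjusted p 2.57e-05 and adjusted p 0.22 in limma). The lack of calls therefore does not show equal RNA in the groups. Against the +/+ pool the lowest adjusted p of an interleukin spot was 0.112 in SDHD-ESR, where 0.0427% of all spots passed. In +/- it was 0.122, and the share was 0.0%. Of the 98 spots, 4 were lower (4.08%) and 7 were higher (7.14%) in SDHD-ESR than in +/- by an unadjusted p of 0.05 or less in limma, against 2.8% lower and 1.81% higher over all spots. The 4 lower spots are 3 of the copies of Il1b and the spot of Il6ra. The 7 higher spots are 1 copy of Il4 and 1 of Il12b, 2 copies of Il10, and spots of Il1rap, Il1rl2 and Il4ra. Copies of a gene read the same RNA, so these 11 spots stand for 8 genes, and the 2 spots of Il10 had low ratios on all 8 arrays.

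Set against the +/+ pool, interleukin spots lay below it in both groups more often than above it. In SDHD-ESR, 12 spots (12.2%) were lower than the pool and 5 (5.1%) higher at an unadjusted p of 0.05 or less in limma, against 7.05% and 10.3% of all spots. In +/-, 15 (15.3%) were lower and 3 (3.06%) higher, against 5.75% and 13.2% of all spots. Copies of a gene count separately here. The lower spots include more than 1 copy of Il10 in both groups and of Il4 in +/-, so they stand for fewer genes. All 12 of the lower spots in SDHD-ESR and 14 of the 15 in +/- belong to genes with at least 50% of readings missing or low. The ratios keep any difference between the dyes, and the pool is 1 sample whose own spread is not in the test.

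The IL-1 family comprised 19 genes on 33 spots, and 13 of them had values on at least 3 arrays of each group. Of these, 9 were higher and 4 lower in SDHD-ESR than in +/-, with differences between -1.12 and 2.02 and a median of 0.26, against a median of -0.05 over 19420 genes. The median over the family on single arrays lay between -0.53 and 0.22 in SDHD-ESR and between -1.22 and -0.37 in +/-, and the ranges overlapped. Within the first slide SDHD-ESR was higher by 0.93 and within the second slide it was at -0.06 relative to +/-.

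**Figure D1:**
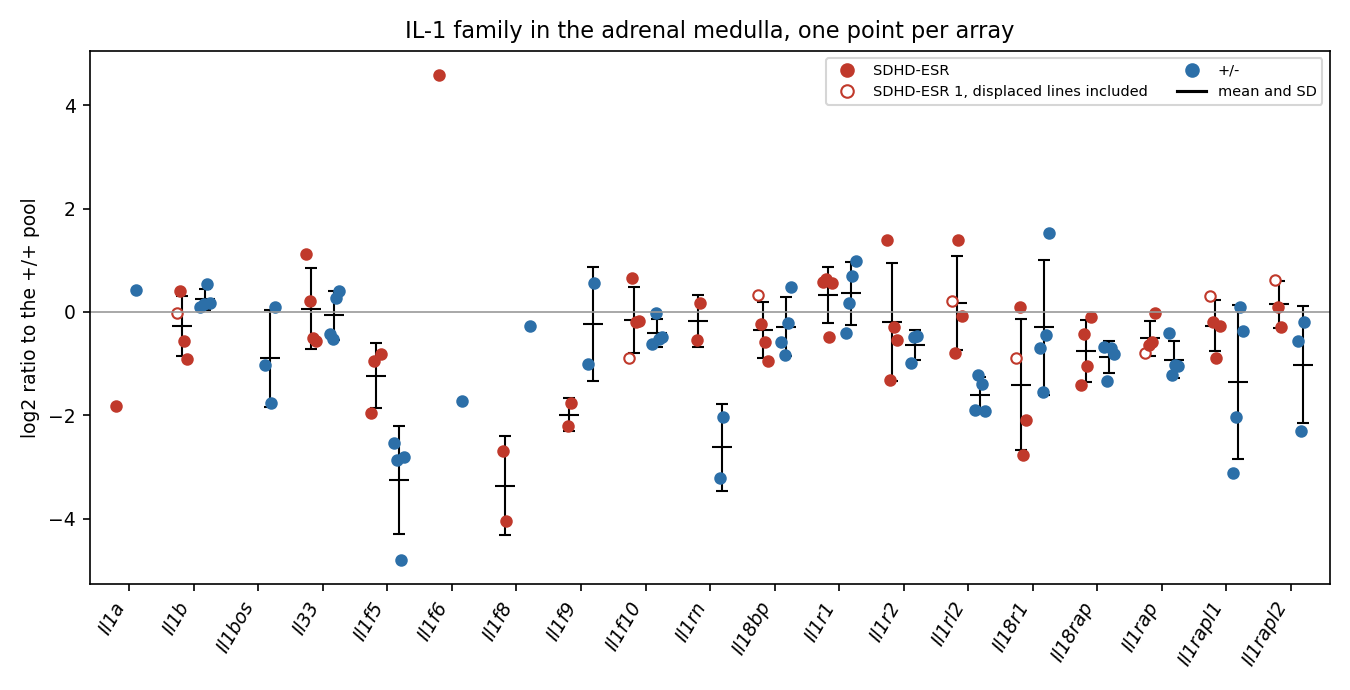
Log2 ratio to the +/+ pool of the 19 IL-1 family genes (mean of a gene's spots), 1 point per array, SDHD-ESR left of +/-, with mean and SD in black; open points are SDHD-ESR replicate 1 where displaced or mixed lines are included. Il1rl2 and Il1f5 are the genes whose groups do not overlap with at least 3 values in each, and several ligands have only 1 or 2 points.

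Il1b, which encodes the secreted pyrogenic ligand IL-1β, was measured by 10 copies of 1 probe (NM_008361). The mean over copies was -0.02, 0.40, -0.55 and -0.91 in SDHD-ESR replicates 1 to 4, against 0.09, 0.16, 0.53 and 0.18 in +/- replicates 1 to 4. SDHD-ESR replicate 2 was above 3 of the 4 +/- arrays and the other SDHD-ESR arrays were below all of them, so the groups overlapped. The difference was -0.51 (SE 0.30), on the linear scale a ratio of 0.702, with an exact two-sided permutation p of 0.2. Relative to +/-, SDHD-ESR was at 0.06 on the first slide and at -1.09 on the second slide, so the decrease came from the second slide. Of the 10 copies, 8 were lower and 2 higher in SDHD-ESR, with differences between -1.52 and 0.97, and 3 were lower at an unadjusted p of 0.05 or less in limma.

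The copies of Il1b spread more on SDHD-ESR replicates 3 and 4 than on any +/- array. Their within-array SD was 1.06, 0.34, 1.03 and 1.21 in SDHD-ESR and 0.21, 0.15, 0.33 and 0.56 in +/-. On SDHD-ESR replicate 4 single copies ran between -3.07 and 0.50, and on +/- replicate 2 between -0.15 and 0.36. With the 5 copies of SDHD-ESR replicate 1 in aligned lines alone, its mean was -0.56, its SD was 0.39 and the difference between the groups was -0.64. Of the Il1b readings, 53.8% were missing or low, and with the low ratios left out the difference was -0.09. Without SDHD-ESR replicate 4 it was -0.30. Il1b is a gene that the study itself picked from these arrays, so its direction is not independent evidence.

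**Figure D2:**
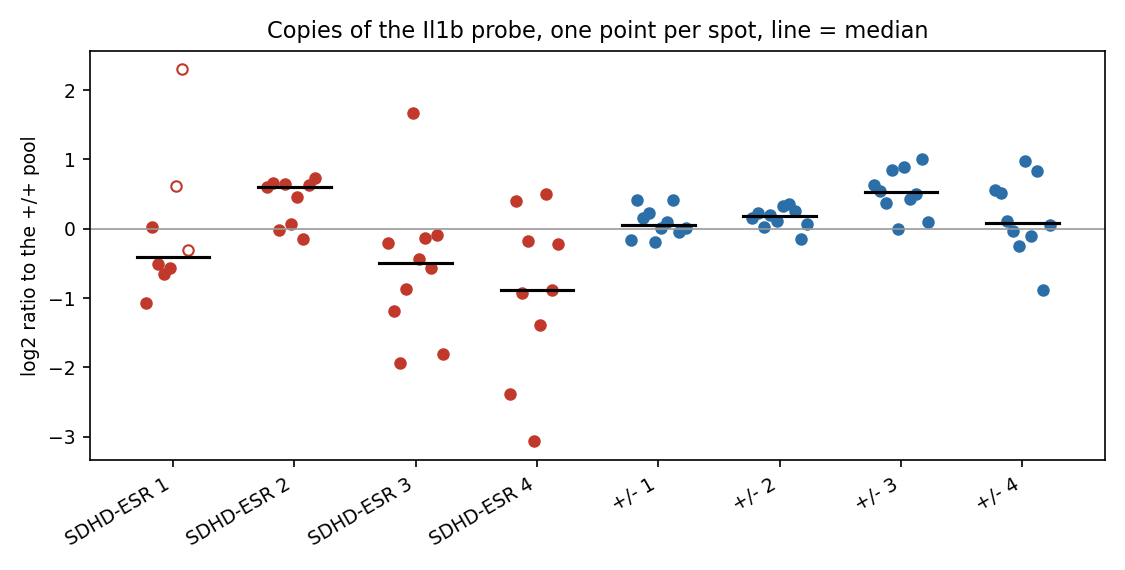
Log2 ratio to the +/+ pool of each copy of the Il1b probe on each array, SDHD-ESR arrays left of +/- arrays; lines are medians and open points are copies in displaced or mixed lines of SDHD-ESR replicate 1. The copies lie close together on the +/- arrays and scatter over several log2 units on SDHD-ESR replicates 3 and 4.

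The other agonist ligands were mostly not measurable at this signal. Il1a, the cell-associated IL-1α, had a ratio on 1 array of each group only, and Il1bos on no SDHD-ESR array and 3 +/- arrays. Il33, an alarmin of stromal and endothelial nuclei, was the best measured of them, with 25% of readings low. It was at 1.12, 0.20, -0.51 and -0.56 in SDHD-ESR and at -0.43, -0.52, 0.28 and 0.41 in +/- (difference 0.13, SE 0.46, exact two-sided permutation p = 0.971). The groups overlapped fully, and SDHD-ESR was higher by 1.14 on the first slide and at -0.88 relative to +/- on the second slide.

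The IL-36 subgroup is known in the annotation by its older names. Its agonists Il1f6, Il1f8 and Il1f9 had 2 to 4 ratios each over the 8 arrays, all of them low. Il1f10, a related ligand, was at -0.90, 0.65, -0.20 and -0.17 in SDHD-ESR, with replicate 1 from a displaced line, and at -0.63, -0.01, -0.52 and -0.49 in +/-. Its difference of 0.26 (SE 0.35) had an exact two-sided permutation p of 0.514. With the lines moved back, SDHD-ESR replicate 1 was at 0.04 and the difference was 0.49 (exact two-sided permutation p = 0.0857).

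Antagonists and binding proteins come next. Il1f5, the antagonist of the IL-36 receptor, was at -1.96, -0.94 and -0.81 in SDHD-ESR replicates 1, 2 and 4, with no ratio on replicate 3, and at -2.54, -2.86, -4.79 and -2.81 in +/-. All 3 SDHD-ESR arrays lay above all 4 +/- arrays, with a difference of 2.02 (SE 0.68) and an exact two-sided permutation p of 0.0286, the smallest that this design allows. Every one of its ratios was low, and neither of its 2 spots had enough values for the limma test. After centring of the arrays on their medians the exact two-sided permutation p was 0.0571. On the arrays with 1 value, that value came from either spot, and on SDHD-ESR replicate 1 the spots were at -0.66 and -3.25. The spot at -3.25 gave -2.54 and -2.86 on +/- replicates 1 and 2, so within that spot the groups overlapped. Il1rn, which encodes the IL-1 receptor antagonist, had 4 ratios in all, -0.54 and 0.18 in SDHD-ESR replicates 2 and 3 against -3.22 and -2.02 in +/- replicates 2 and 3, all of them low. Il18bp, the soluble binding protein that neutralizes IL-18, was measured on every array without a low ratio. It was at 0.33, -0.24, -0.58 and -0.94 in SDHD-ESR, with replicate 1 from a displaced line, and at -0.58, -0.84, -0.21 and 0.48 in +/- (difference -0.07, SE 0.39, exact two-sided permutation p = 0.8). With the lines moved back, SDHD-ESR replicate 1 was at -0.52 and the difference was -0.28.

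Among the receptors, Il1rl2, the chain that binds the IL-36 ligands, was the only one of the 47 interleukin genes with values on all 8 arrays whose groups did not overlap. It was at 0.22, -0.80, 1.39 and -0.09 in SDHD-ESR and at -1.90, -1.23, -1.40 and -1.91 in +/-. Every SDHD-ESR array lay above every +/- array, and all +/- arrays lay below the pool. The difference was 1.79 (SE 0.45 in limma), a ratio of 3.46, with an exact two-sided permutation p of 0.0286 and an unadjusted p of 0.00434 and adjusted p of 0.953 in limma. Of 16315 genes with values on all arrays, 0.895% had all SDHD-ESR arrays above all +/- arrays and 1.24% had them below, and among the 47 interleukin genes 1 was above and 0 were below. Within the slides the difference was 1.27 and 2.31. Il1rl2 was measured by 1 spot with a low ratio on 7 of the 8 arrays, and its line is displaced on SDHD-ESR replicate 1. With the displaced lines moved back, SDHD-ESR replicate 1 had no ratio and the other 3 arrays gave a difference of 1.78, still above all +/- arrays.

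The signaling receptor of IL-1, Il1r1, was at 0.58, 0.64, -0.49 and 0.56 in SDHD-ESR and at -0.40, 0.17, 0.69 and 0.99 in +/-. Replicate 3 stood apart below the other SDHD-ESR arrays, and the groups had nearly equal means (difference -0.04, SE 0.41, exact two-sided permutation p = 0.857). The decoy receptor Il1r2 had only low ratios, at 1.39, -1.32, -0.29 and -0.54 in SDHD-ESR and at -0.98, -0.49 and -0.47 in +/- replicates 1 to 3. The ligand-binding and accessory chains of the IL-18 receptor, Il18r1 and Il18rap, differed by -1.12 (SE 0.91) and 0.13 (SE 0.34), both less than the spread between arrays. Of the readings of Il1r1, Il18r1 and Il18rap, 75%, 93.8% and 100% were missing or low.

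Il1rap, the accessory chain that completes the receptors of IL-1, IL-33 and IL-36, was measured by 3 spots of different transcripts that disagreed. The spot of NM_008364 was at -0.67, -1.53, -0.00 and 0.00 in SDHD-ESR and at -3.06, -3.89 and -2.43 in +/- replicates 2 to 4, with no ratio on +/- replicate 1. Its difference of 2.58 (SE 0.50) had an unadjusted p of 0.00158 and an adjusted p of 0.953 in limma, the lowest unadjusted p of an interleukin spot. The spots of NM_134103 and AK083209 differed by -0.41 (SE 0.37) and -0.10 (SE 0.39). With the lines moved back, the NM_008364 spot was at 2.17 on SDHD-ESR replicate 1. Of the 7 ratios of this spot 5 were low. Over all 3 spots the difference was 0.41 (SE 0.25, exact two-sided permutation p = 0.143). It was 0.77 with the lines moved back, 0.03 with low ratios left out, and -0.41 for the NM_134103 spot, which alone had values on all 8 arrays. The neuronal relative Il1rapl1, which acts at synapses, differed by 1.09 (SE 0.78), or by 0.50 without +/- replicate 1. Its homolog Il1rapl2 differed by 1.16 (SE 0.70) on a displaced line, or by 0.59 with the lines moved back, and the groups of both overlapped. Of the readings of Il1rapl1 and Il1rapl2, 93.8% and 75% were missing or low.

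Among genes of the family that lie next to each other the differences had both signs. Those of Il1r1, Il1r2 and Il18rap were smaller than their SE, so no direction is established for these genes. In the RefSeq annotation of GRCm38.p6, Il1r2, Il1r1, Il1rl2, Il1rl1, Il18r1 and Il18rap follow each other on the chromosome, and the 5 of these with a spot had differences of 0.46, -0.04, 1.79, -1.12 and 0.13 in that order. Il1f8, Il1f9, Il1f6, Il1f5, Il1f10 and Il1rn form a second run, in which Il1f5 and Il1f10 were the only genes with values on at least 3 arrays of each group.

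In the family that signals through the common gamma chain, Il4ra stood apart. It encodes the chain that binds IL-4 and is also part of a receptor of IL-13, and its 2 spots (NM_001008700) were both higher in SDHD-ESR. The first was at 0.13, 0.71, 1.05 and 0.43 in SDHD-ESR and at 0.12, -0.09, 0.02 and 0.60 in +/-. The second was at 1.63, 1.32, 0.71 and 0.76 in SDHD-ESR and at 0.57, -0.24, -0.05 and 0.64 in +/-, so that its groups did not overlap. The mean of both was 0.88, 1.02, 0.88 and 0.59 in SDHD-ESR and 0.34, -0.16, -0.01 and 0.62 in +/-, and SDHD-ESR replicate 4 lay just below +/- replicate 4. The difference was 0.65 (SE 0.20), a ratio of 1.57, with an exact two-sided permutation p of 0.0571. The second spot had an unadjusted p of 0.02 and an adjusted p of 0.953 between the groups, and an adjusted p of 0.112 against the pool in SDHD-ESR, all from limma. Both spots are in mixed or displaced lines on SDHD-ESR replicate 1. With these lines moved back the difference was 0.69, and with low ratios left out it was 0.65. Il4ra is also named by the study from these arrays and is not independent evidence.

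Of the 13 compared genes of this family, 9 were lower and 4 higher in SDHD-ESR, with a median difference of -0.35. Il4 itself, the T cell and mast cell cytokine, had a mean over 10 copies of 0.63, -1.29, 0.28 and 0.39 in SDHD-ESR and of -1.02, -0.64, -0.76 and -1.0 in +/-, with single copies up to 4.15 on SDHD-ESR replicate 4 and down to -3.48 on SDHD-ESR replicate 2. Its within-array SD had a median of 1.05, and the difference of 0.85 (SE 0.45) had an exact two-sided permutation p of 0.143. Il21r, the receptor of the T cell cytokine IL-21, was at -1.04, -0.58, -1.54 and -2.06 in SDHD-ESR and at -0.34, -1.04, 0.06 and -0.51 in +/-, from a displaced line with 87.5% of readings low (difference -0.85, SE 0.39, exact two-sided permutation p = 0.0857), and with the lines moved back its difference was -0.41. Il15, which sustains natural killer and memory T cells, differed by -0.55 (SE 0.31) on a mixed line and its receptor chain Il15ra by -0.32 (SE 0.24).

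In the family of gp130, the signal chain shared by IL-6 and its relatives, the ligand-binding Il6ra was lower in SDHD-ESR in 3 of 3 measured arrays. It was at 0.35, -0.14 and 0.12 in SDHD-ESR replicates 2 to 4 and at 0.75, 0.78, 0.57 and 0.52 in +/-. The groups did not overlap (difference -0.54, SE 0.18 in limma, ratio 0.688, exact two-sided permutation p = 0.0286, the smallest this design allows), and no ratio was low. In limma the unadjusted p was 0.0192 and the adjusted p was 0.953. Its line is displaced on SDHD-ESR replicate 1, and with the lines moved back this array was at 0.63, inside the +/- range (difference -0.41, exact two-sided permutation p = 0.0857). After centring of the arrays on their medians the exact two-sided permutation p was 0.143.

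Il6st, which encodes gp130 itself, was at 0.21, 0.31, -0.38 and -0.11 in SDHD-ESR and at 0.32, -0.35, 0.57 and 0.69 in +/- (difference -0.30, SE 0.28). Il6 had only low ratios. Il23a, a subunit of the T cell cytokine IL-23, was at -0.39, -0.07 and -1.55 in SDHD-ESR replicates 2 to 4 and at -2.14, -1.69 and -4.64 in +/- replicates 2 to 4, all low, so that its groups did not overlap, with an exact two-sided permutation p of 0.1, the smallest that 3 arrays against 3 allow. Il12b, the subunit shared by IL-12 and IL-23, differed by 0.45 (SE 0.44) over its 10 copies, whose within-array SD had a median of 1.43.

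**Figure D3:**
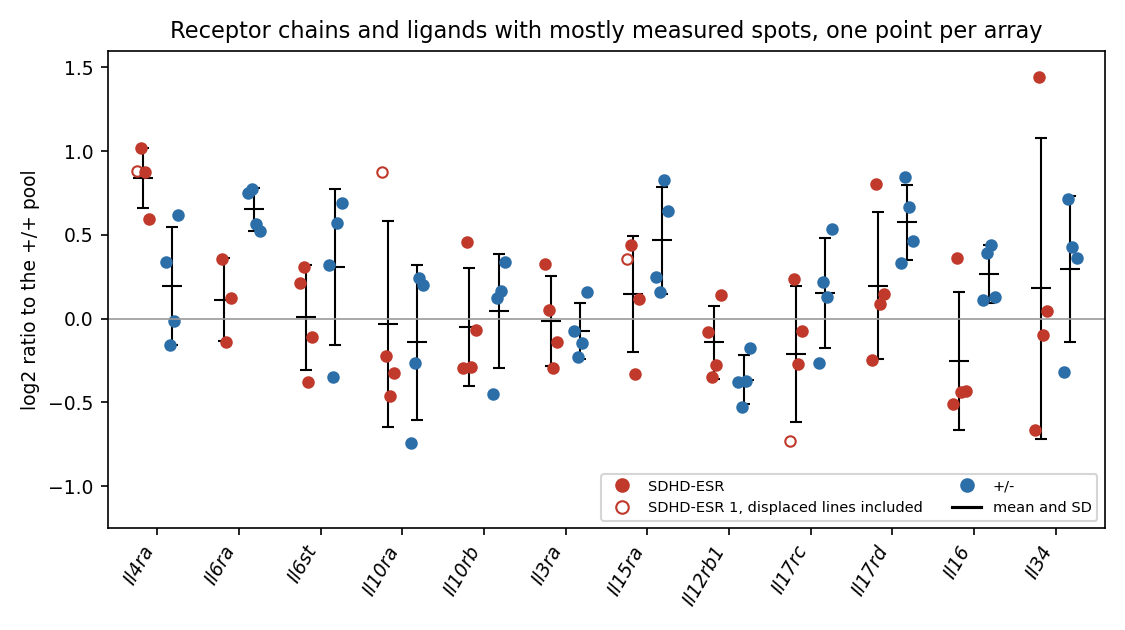
Log2 ratio to the +/+ pool of 12 interleukin and receptor genes with under 50% of readings missing or low, 1 point per array, SDHD-ESR left of +/-, with mean and SD; open points are SDHD-ESR replicate 1 where displaced or mixed lines are included. The groups of Il6ra do not overlap, those of Il4ra, Il16 and Il17rd overlap in 1 SDHD-ESR array each, and the others overlap more widely.

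The IL-10 family held 11 genes, 5 lower and 6 higher, with a median difference of 0.03. Il10, which dampens macrophages, was at -0.32, -1.39, -0.10 and -0.38 in SDHD-ESR and at -1.22, -0.67, -0.72 and -0.63 in +/- (difference 0.26, SE 0.32, exact two-sided permutation p = 0.429). Its receptor chains Il10ra, which is specific to leukocytes, and Il10rb, which is broadly expressed, were well measured and differed by 0.11 (SE 0.38) and -0.09 (SE 0.25). With the displaced line of Il10ra moved back its difference was -0.38. Il20, a keratinocyte and myeloid cytokine, differed by 0.94 (SE 0.58).

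Of the 9 compared IL-17 family genes 3 were lower and 6 higher, with a median of 0.09. Il17rb, the receptor of IL-25, was at 0.37, -0.94, 0.11 and 1.39 in SDHD-ESR and at -0.56, -1.24, -1.09 and -1.05 in +/-, with both spots in displaced lines and 81.3% of readings missing or low (difference 1.22, SE 0.50, exact two-sided permutation p = 0.0571), and 1 SDHD-ESR array lay within the +/- range. With the lines moved back, SDHD-ESR replicate 1 was at -0.21 and the difference was 1.07. Il17rd, a receptor-like protein that also restrains growth factor signaling, was at -0.24, 0.80, 0.09 and 0.15 in SDHD-ESR and at 0.34, 0.84, 0.67 and 0.46 in +/- (difference -0.38, SE 0.25).

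Among the remaining genes, Il16, a chemoattractant of CD4+ cells made by lymphocytes, was at -0.51, 0.36, -0.44 and -0.43 in SDHD-ESR and at 0.11, 0.39, 0.44 and 0.13 in +/-. SDHD-ESR replicate 2 was with the +/- arrays and the other 3 were below them (difference -0.52, SE 0.22, exact two-sided permutation p = 0.0857), on a line that is aligned on every array. Il34, a ligand of the macrophage receptor CSF1R, was at -0.67, 1.45, -0.10 and 0.05 in SDHD-ESR and at -0.32, 0.71, 0.43 and 0.36 in +/- (difference -0.12, SE 0.50). The IL-3 receptor chain Il3ra differed by 0.06 (SE 0.16), and Il3, of mast cell growth, by 0.97 (SE 0.56) with low ratios only. The IL-13 receptor chain Il13ra1, on a mixed line, differed by 0.01 (SE 0.72). The decoy chain Il13ra2, on a displaced line, differed by 0.66 (SE 0.41), or by 0.31 without +/- replicate 1, and the groups of both overlapped.

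Across all families, 64 interleukin genes had values on at least 3 arrays of each group, 28 lower and 36 higher in SDHD-ESR, with a median difference of 0.08 against -0.05 over all genes, of which 11050 were lower and 8370 higher. The exact permutation test reached p of 0.05 or less for 3 of the 64 (Il1f5, Il1rl2 and Il6ra), or 4.69%, against 2.11% of 19420 genes. On single arrays the median over interleukin genes was -0.21, -0.03, -0.27 and -0.16 in SDHD-ESR and -0.44, -0.35, 0.02 and 0.17 in +/-. Relative to +/-, SDHD-ESR was at 0.27 on the first slide and at -0.31 on the second slide. The median over all genes moved the same way, at 0.20 and -0.32.

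Splitting the genes by the quality of their readings turned the sign of the median. Of the 21 genes with under 50% of readings missing or low, 14 were lower and 7 higher in SDHD-ESR, with a median difference of -0.11. Of the 43 genes with 50% or more, 14 were lower and 29 higher, with a median of 0.13. The same split over all genes gave medians of -0.08 (7741 lower, 4397 higher) and 0.06 (3309 lower, 3973 higher). The median SD between arrays of a group was 0.346 for the better measured interleukin genes and 0.674 for the others, and all differences beyond 0.65 in size came from the others.

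**Figure D4:**
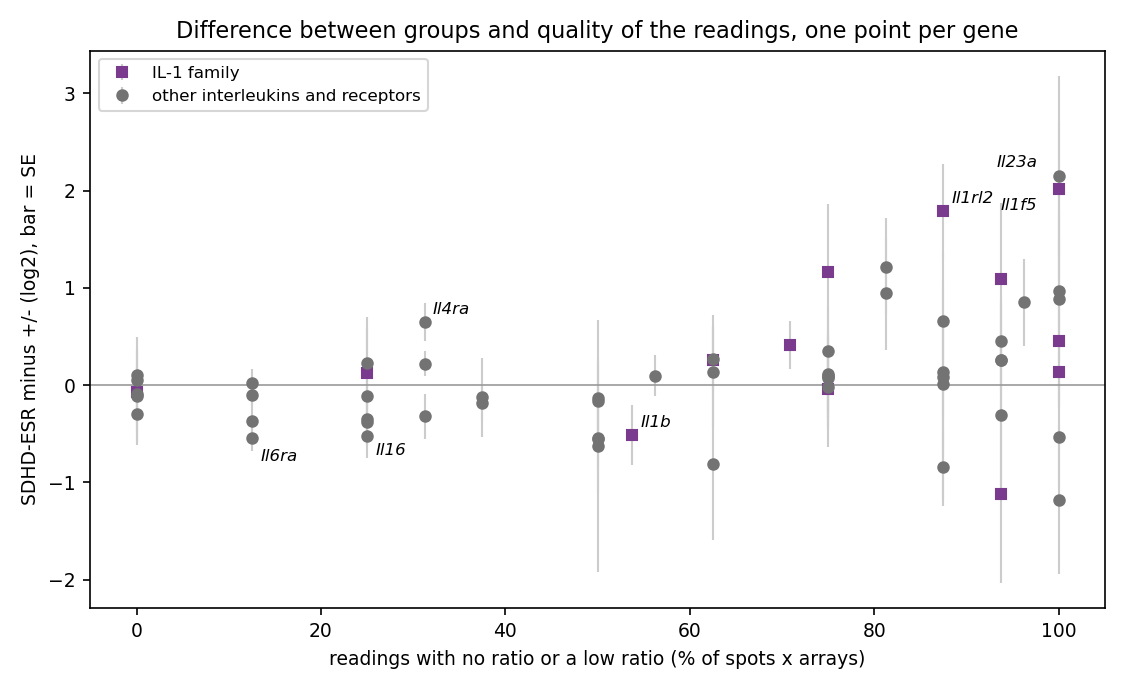
Difference between SDHD-ESR and +/- (log2, bars are SE) of 64 interleukin and receptor genes against the share of each gene's readings with no ratio or a low ratio; squares are the IL-1 family. Differences lie between -0.54 and 0.65 below 50% and between -1.18 and 2.15 at or above it.

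Genes that carry interleukin signals but are named otherwise were taken from lists. Of 26 genes of IL-1 signaling and processing, 19 were lower and 7 higher, with a median difference of -0.12. Of their 55 tested spots, 2 were lower and 1 higher at an unadjusted p of 0.05 or less in limma. Over all spots the shares were 2.8% lower and 1.81% higher. None of the 55 spots passed an adjusted p of 0.05. Casp1, the protease that matures IL-1β, was at -0.53, -0.21, -0.61 and -1.03 in SDHD-ESR and at -0.02, -0.05, 0.39 and 0.26 in +/- (difference -0.74, SE 0.20). Sigirr, an inhibitory receptor of the family, was at -0.36, -0.10, -0.57 and 0.00 in SDHD-ESR and at 0.08, 0.23, 0.21 and 0.20 in +/- (difference -0.44, SE 0.13), and its groups overlapped once the arrays were centred. Tirap, a Toll-like receptor adaptor, was at 0.84, 0.48, 0.57 and 0.40 in SDHD-ESR, with replicate 1 from a displaced line, and at -0.05, -0.06, 0.20 and 0.23 in +/- (difference 0.49, SE 0.12, or 0.35 with the lines moved back). As deposited, the groups of these 3 genes did not overlap (exact two-sided permutation p = 0.0286 each), and Casp1 and Tirap are named by the study. Of the 25 genes of this list with values on all 8 arrays, 2 had all SDHD-ESR arrays below all +/- arrays and 1 had them above. Over all genes with values on all arrays the shares were 1.24% and 0.895%. Myd88, an adaptor of signaling receptors of the IL-1 family, differed by 0.01 (SE 0.16) over 10 spots.

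Of 17 JAK-STAT genes 14 were lower and 3 higher (median -0.17). Of their 44 tested spots, 1 was lower and 5 higher at an unadjusted p of 0.05 or less in limma. The shares over all spots were 2.8% lower and 1.81% higher. Copies of a gene count separately among the 44 spots. Stat3, which carries the signal of gp130 and is also named by the study, was at 0.72, 0.71, 0.48 and 0.29 in SDHD-ESR and at -0.06, 0.39, -0.05 and 0.18 in +/- over 11 spots (difference 0.44, SE 0.15, exact two-sided permutation p = 0.0571). Stat6, which carries the signal of Il4ra, differed by -0.06 (SE 0.19). Of 14 partner chains and related ligands 8 were lower and 6 higher (median -0.06). Ebi3, the partner subunit of IL-27, was lower on all SDHD-ESR arrays (difference -0.48, SE 0.16, exact two-sided permutation p = 0.0286), and it too is named by the study. Of 13 genes of that list with values on all 8 arrays, 1 had all SDHD-ESR arrays below all +/- arrays and 0 had them above. Over all genes with values on all arrays the shares were 1.24% and 0.895%.

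Marker lists of other cells were read on the same arrays. Pan-leukocyte markers had lower means in SDHD-ESR for 15 of 15 genes (median difference -0.46) and macrophage markers for 17 of 19 (median -0.59), with array medians of -0.66 to -0.24 and -0.69 to -0.31 in SDHD-ESR against -0.30 to 0.26 and -0.28 to 0.38 in +/-. At an unadjusted p of 0.05 or less in limma, 11 of 31 pan-leukocyte and 18 of 33 macrophage spots were lower and none higher. Over all spots the shares were 2.8% lower and 1.81% higher. None of these marker spots passed an adjusted p of 0.05. T cell markers had lower means for 10 of 10 genes (median -0.28), mast cell markers for 6 of 9 (median -0.03), endothelial markers for 11 of 13 (median -0.26) and connective tissue markers for 12 of 13 (median -0.67). B cell markers had lower means for 6 of 10 genes (median -0.21) and neutrophil markers for 5 of 9 (median -0.30). Of all genes, 56.9% had lower means. At an unadjusted p of 0.05 or less in limma, 2 of 42 T cell and 0 of 24 endothelial spots were lower. For mast cells, connective tissue, B cells and neutrophils it was 1 of 10, 6 of 27, 2 of 12 and 0 of 10. Only 1 spot of these lists, of a mast cell marker, was higher. Of the T cell, mast cell and neutrophil readings, 64.8%, 59.4% and 53.1% were missing or low. Chromaffin markers had a median difference of -0.07 and adrenal cortex markers of 0.05, but 47.9% and 54.5% of their ratios lay within 0.01 of 0, against 1.04% for the interleukin genes. The part of these markers in the interleukin values was not tested.

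**Figure D5:**
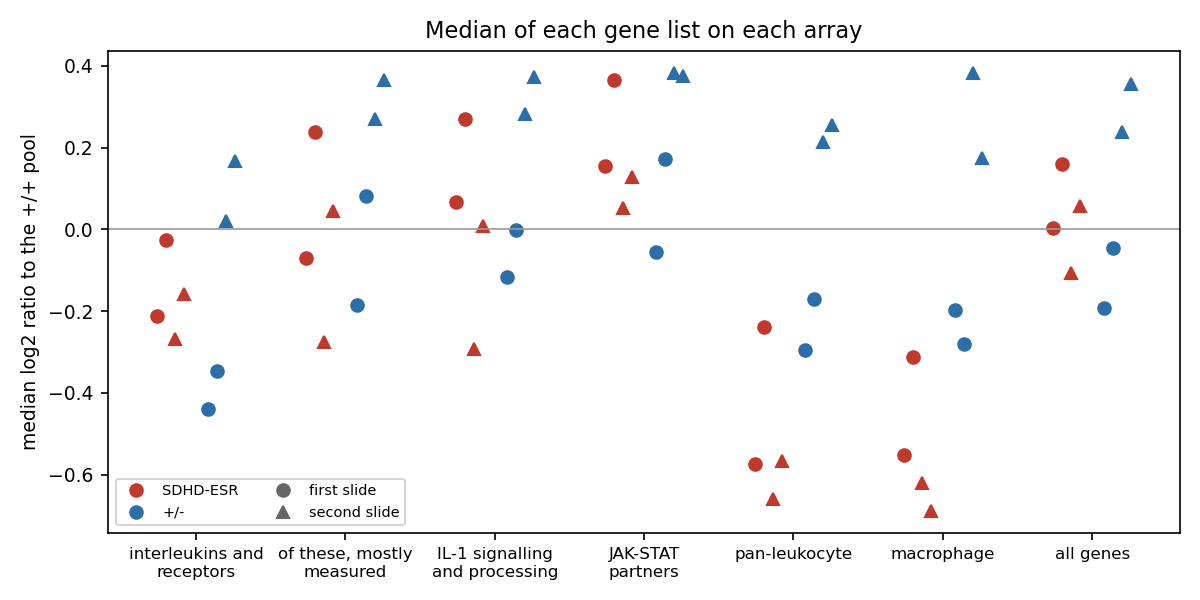
Median log2 ratio to the +/+ pool of each gene list on each array, SDHD-ESR left of +/-; circles are arrays of the first slide and triangles of the second slide. The interleukin medians overlap between the groups, and the macrophage medians of all 4 SDHD-ESR arrays are below those of all 4 +/- arrays.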

How the data were processed

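The authors deposited log Cy5/Cy3 ratios of fluorescence for 45220 spots per array, read with a GenePix scanner and Multi-Experiment Viewer; the unit was entered as a score because the base of the log is not stated. Between 39.1% and 46.2% of the ratios of an array equal, within 3e-07, the log2 of a ratio of 2 whole numbers with the smaller at most 200, against 2.29% to 3.08% for the natural log and 14.0% to 17.2% for log10, so the deposited score was read as log2. The sources used here give neither background correction nor dye normalization. Spots were named through the grid's geometry and the platform's probe annotation, the sign was turned, since the deposited values ran opposite to the Cy5/Cy3 definition as judged by Sdhd in SDHD-ESR, and whole numbers were left out as missing. Groups are those of the labels. Replicates are pools of 2 separate mice.

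Spots with 3 or more values per group were fitted in limma 3.58.1 (R 4.3.3, lmFit and eBayes, Benjamini-Hochberg over 28073 spots), after testing on simulated data. Gene values are means over spots, with exact permutation tests over arrays (smallest p 0.0286). Python 3.11.15, numpy 2.4.6, pandas 2.3.3 and matplotlib 3.10.9 were used. Names in the text follow a rule: the IL-1 family, Il4ra, members that passed or whose groups do not overlap on 8 arrays, and 2 per family by smallest limma p; Il6, Il6st, Il10ra, Il10rb, Il12a, Il15, Il15ra, Il21r, Il23a and the genes taken from the signaling and partner lists were named after their values were seen. The members and lists were chosen with earlier results of these data known. Alternatives covered centring, quantile normalization, spot filters, blocks, moderation, displaced lines and left-out arrays. Precision is limited by the number of arrays. No sequence is shown, since the tests rest on array ratios alone.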

Additional observations from a re-analysis of the deposited data

Results flagged for a closer look

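In 4 of the 46 sets of 4 arrays checked among the named genes, 1 array stood far from the other 3, and chance alone gives about 1 in 20. Il1r1 was at -0.49 on SDHD-ESR replicate 3, while the other SDHD-ESR arrays lay between 0.56 and 0.64. Il16 was at 0.36 on SDHD-ESR replicate 2, with the others between -0.51 and -0.43. Il1f5 was at -4.79 on +/- replicate 3, with the others between -2.86 and -2.54, all of them low ratios. Il10 was at -1.22 on +/- replicate 1, with the others between -0.72 and -0.63.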

How the results depend on the processing

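No interleukin spot passed an adjusted p of 0.05 between SDHD-ESR and +/- under any alternative run, including each array left out (0 to 0 spots), the methods' t-test (0, with 9 spots unadjusted) and robust eBayes (0, and 14 unadjusted). The sources used here state no pairing of samples by replicate number. Deviations of same-numbered arrays correlated at -0.00 to 0.12 and those of differently numbered arrays at -0.14 to 0.05. These correlations cannot decide on a pairing, since part of the grid of SDHD-ESR replicate 1 is displaced. With the replicate block 0 spots passed and 13 had an unadjusted p of 0.05 or less in limma, against 11 without it. Against the +/+ pool in SDHD-ESR, 0 spots passed, 1 after quantile normalization (Il4ra, higher) and 3 with displaced lines moved back and arrays centred (Il4ra, Il7r and Il15ra). In +/- against the pool, 0 passed, 3 after quantile normalization (Il1rap, Il12rb1 and Il15ra) and 2 with low ratios left out (Il6ra and Il12rb1), an alternative chosen after seeing the data, as were the aligned lines of SDHD-ESR replicate 1 alone. Each array left out gave 0 to 0 spots in both. Over the whole series, spots passing in SDHD-ESR against the pool numbered 12, 455 after quantile normalization and 1428 with lines moved back and arrays centred. The median difference over interleukin genes was 0.08 and ranged between -0.09 (without +/- replicate 1) and 0.18 (without +/- replicate 4). It was -0.05 without SDHD-ESR replicate 1, -0.02 without +/- replicate 2, -0.01 without SDHD-ESR replicate 2 and with values on all 8 arrays, and -0.06 with low ratios left out, so its sign is not settled. Of 27 named genes, 17 kept their sign in every alternative, and 357 of 379 pairs of gene and alternative did. The others were Il1r1, Il1r2, Il1rap, Il1f10, Il3ra, Il13ra1, Il18bp, Il18rap, Il33 and Il34. Differences shrank without +/- replicate 1 to 0.18 for Il12b and 0.48 for Il20, and without +/- replicate 4 to -0.51 for Il18r1, while Il1r2 was at -0.07 without SDHD-ESR replicate 1. The causes were not tested.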
